A study of Mus musculus with 8 samples.

Results

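*Atp1b1* and *Atp1b2*, the potassium channel subunit genes *Kcnj10* and *Kcnj16*, the sodium bicarbonate cotransporter gene *Slc4a4* and the GABA transporter gene *Slc6a11* were followed in newborn mouse brain after maternal cadmium (Cd) exposure. These 6 genes for pumps, channels and transporters are grouped as glial, although neurons also use *Atp1b1* widely. They were chosen by gene symbol from the 49585 genes listed in the table of counts for the B genome. The choice was made with earlier results of these data known. All 6 had enough counts to be tested, and 23113 genes were tested in all. The samples were whole brains of 8 newborn F1 females (postnatal day 1) of a C57BL/6J ('B') mother and a CAST/EiJ ('C') father, 4 whose mothers drank water with 0 ppm CdCl2 and 4 whose mothers drank water with 50 ppm. Mothers were exposed from before mating until birth, so the pups met Cd through the mother before birth. Each pup came from a different litter, and only females of 1 cross were sequenced. RNA came from a small part of each pulverized whole brain. The question is whether maternal Cd was associated with other RNA levels of these genes at birth.

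Astrocytes and their precursors take up the potassium, the bicarbonate and the transmitters that active neurons release, and the sodium pump makes the gradients that drive this uptake. The sodium pump, or Na,K-ATPase, joins a catalytic α subunit with a β subunit that carries it to the membrane. *Atp1b2* encodes the β subunit typical of glia and *Atp1b1* a β subunit that neurons use widely. *Kcnj10* encodes Kir4.1, the main inwardly rectifying potassium channel of astrocytes, and *Kcnj16* encodes Kir5.1, which joins Kir4.1 in a heteromeric channel that is sensitive to pH. *Slc4a4* encodes NBCe1, which moves sodium and bicarbonate together across the membrane. *Slc6a11* encodes GAT-3, the GABA transporter of astrocytes, which clears GABA from the space around synapses. These are known roles. In RNA from a whole brain, fewer cells of a type and less RNA per cell cannot be told apart, and a read cannot be traced to glia.

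The genes lie on 4 chromosomes (GRCm38, GENCODE M21). *Kcnj10* (ENSMUSG00000044708) lies on chromosome 1 from 172341210 to 172374085 on the forward strand. *Atp1b1* (ENSMUSG00000026576) lies on the same chromosome from 164437109 to 164458355 on the reverse strand. The channel gene *Kcnj9* is 11891 bases from *Kcnj10*, on the opposite strand. *Kcnj16* (ENSMUSG00000051497) lies on chromosome 11 from 110968033 to 111027968 on the forward strand, 38195 bases before the channel gene *Kcnj2*. *Atp1b2* (ENSMUSG00000041329) is also on chromosome 11, from 69599736 to 69605942 on the reverse strand. *Slc4a4* (ENSMUSG00000060961) spans 88886818 to 89239653 on chromosome 5 and *Slc6a11* (ENSMUSG00000030307) spans 114131241 to 114249952 on chromosome 6, both on the forward strand. Of the exon bases of *Atp1b1*, 18.7% overlap the gene *Nme7* on the opposite strand, so its counts are uncertain if strand was not used in counting.

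The windows at the start of *Kcnj10* and *Kcnj16* are shown because these genes encode partners in 1 channel and had unlike differences between doses, and that of *Slc6a11* because it held a pair of matches to the core of the metal response element, as did that of *Atp1b1*, which is not printed. Each window runs from 250 bases before the start site to 50 after it and is taken from RefSeq (GRCm38.p6), which gave 9 windows for 5 of the 6 genes. *Atp1b2* had no entry. Capitals mark matches on either strand to TTGGCA (part of an NFI site), ACAAAG or ACAATG (SOX), TGCACNC or TGCGCNC (metal response), TATAAA and CCAAT, and positions count from 0 at the start site. No matches overlap in these 3 windows.
Kcnj10, chr1:172340960-172341259, forward strand: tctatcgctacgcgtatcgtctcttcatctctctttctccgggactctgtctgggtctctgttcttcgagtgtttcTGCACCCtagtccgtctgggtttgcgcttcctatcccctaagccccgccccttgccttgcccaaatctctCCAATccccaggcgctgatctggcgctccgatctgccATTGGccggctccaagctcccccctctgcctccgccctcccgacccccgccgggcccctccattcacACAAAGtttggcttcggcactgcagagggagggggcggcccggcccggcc
Kcnj16, chr11:110967783-110968082, forward strand: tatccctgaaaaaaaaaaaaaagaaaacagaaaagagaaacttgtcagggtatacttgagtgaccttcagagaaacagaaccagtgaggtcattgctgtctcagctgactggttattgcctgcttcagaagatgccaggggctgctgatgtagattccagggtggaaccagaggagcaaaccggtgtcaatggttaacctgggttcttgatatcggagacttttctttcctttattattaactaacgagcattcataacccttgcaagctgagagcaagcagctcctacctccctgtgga
Slc6a11, chr6:114130991-114131290, forward strand: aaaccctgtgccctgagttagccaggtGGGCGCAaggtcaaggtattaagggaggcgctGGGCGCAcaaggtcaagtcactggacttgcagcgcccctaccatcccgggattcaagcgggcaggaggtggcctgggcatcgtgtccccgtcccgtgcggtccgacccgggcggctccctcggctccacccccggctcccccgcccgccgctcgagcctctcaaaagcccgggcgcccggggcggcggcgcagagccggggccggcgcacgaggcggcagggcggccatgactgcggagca

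The *Kcnj10* window was rich in G and C (63.7%) with 21 CG pairs, and it held CCAAT boxes at -104 and -67, TGCACNC at -174 and ACAAAG at 0. The *Kcnj16* window had 44.3% G and C, 3 CG pairs and no match. The 3 other annotated starts of *Kcnj16* (110997487, 111019585 and 111023860) had 1 or 2 matches each. *Slc6a11* had 72.3% G and C, 32 CG pairs and TGCGCNC at -223 and -191. *Atp1b1* had 71% G and C, 31 CG pairs and TGCGCNC nearer its start, at -10 and 22, with CCAAT at -81 and 1 and ACAAAG at -144. Over all 32851 windows the median was 52.7% G and C with 7 CG pairs. TGCGCNC was in 4 of the 9 windows of these genes and in 15.4% of all windows, and CCAAT was in 4 of 9 and in 37.4% of all. TTGGCA was in 2 of 9 windows and 14.1% of all, ACAAAG in 2 and 18.7%, TGCACNC in 1 and 12.6%, TATAAA in 1 and 13.6%, and ACAATG in 0 and 12.6%. A match of letters is a description and not a bound site.

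Levels of a gene are given as CPM, its counts scaled to a common total of reads on genes (10 to the power 6) after TMM normalization. Total counts were between 22916434 and 30708087 per brain, so 3 counts amount to between 0.098 and 0.132 CPM. The controls were not alike. The summed CPM of 10 tested hindbrain and spinal cord markers of 13 fixed was between 1.19 and 35.4 in the control brains and between 30.1 and 119 in the exposed brains, and 6 of the 10 (all *Hox* genes) were at 0 CPM in at least 1 control. Control replicates 1 and 2 were lowest, with a mean log2 CPM over these markers of -3.02 and -2.17 against 1.12 or more in the other 6 brains. Of these 10 markers, 9 were higher and 0 lower at 50 ppm at an unadjusted p under 0.05, against 2.31% and 1.44% of all genes tested. Of 11 forebrain markers, 6 were lower and 0 higher, and their summed CPM was between 625 and 1040 in controls and between 708 and 857 in exposed brains. The log2 fold change of each of the 6 genes and the ratios are therefore also given without control replicates 1 and 2, a choice made after the data were seen. The part of these markers in the results was not tested beyond the fits named with each.

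Compared per kilobase of exon, the 6 genes could be put in order. Over the 8 brains, *Atp1b1* was highest with a mean of 172 CPM per kb (range 150 to 194), 3.16 times the next gene. *Slc6a11* (54.5 CPM per kb, 43.6 to 67) and *Atp1b2* (52.0 CPM per kb, 45.2 to 60.6) followed and did not differ beyond their spread, with *Slc6a11* higher in 5 of the 8 brains. *Slc4a4* had 12.8 CPM per kb (10.3 to 15.8), *Kcnj10* 8.54 (7.77 to 9.55) and *Kcnj16* 2.16 (1.33 to 3.13). Apart from *Slc6a11* and *Atp1b2*, neighbours in this order kept it in 8 of 8 brains and their ranges did not overlap. The order was taken from the B genome alone. In controls *Slc4a4* had 121 CPM there and 57.8 CPM in the C genome, so its place above *Kcnj10* may depend on the alignment. Kir5.1 RNA was therefore well below Kir4.1 RNA in every brain. In CPM without regard to length, *Kcnj16* had more reads than 53.6% of the genes tested and *Kcnj10* more than 77.2%, and the other 4 more than at least 92.3%.

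Between doses, all 6 genes had a higher mean at 50 ppm, but no difference passed the test after adjustment. In edgeR, whose quasi-likelihood p was adjusted (Benjamini-Hochberg) for every gene tested, 0 of the 6 genes had an adjusted p under 0.05, against 4 of 23113 genes tested (0.0173%). At an unadjusted p under 0.05 the count was 4 of 6 (*Kcnj16*, *Slc4a4*, *Slc6a11* and *Atp1b2*), all higher at 50 ppm, against 3.75% of all genes in either direction and 2.31% in the higher direction. DESeq2 on the same counts gave 1 of 6 at an adjusted p under 0.05 (*Kcnj16*), where 0.0779% of all genes were called, and 4 of 6 at an unadjusted p (2.81% of all genes). The median log2 fold change was 0.22 over the 6 genes and -0.003 over all genes tested, of which 49% were positive. These 6 genes were chosen with earlier results of these data known, and most were high or low in the same brains. The counts and the median are therefore descriptions, and nothing particular to the set follows from them. Only *Kcnj16* had dose groups that did not overlap, against 2.09% of all genes in either direction and 1.19% with every exposed brain above every control. *Kcnj16* is also among the genes that the study singled out in these same brains, so its difference here is not independent evidence. For *Slc6a11* the study reported more protein in the exposed brains, with proteomic samples from these same pups. The RNA difference of *Slc6a11* is therefore not independent of that report either.

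**Figure D1:**
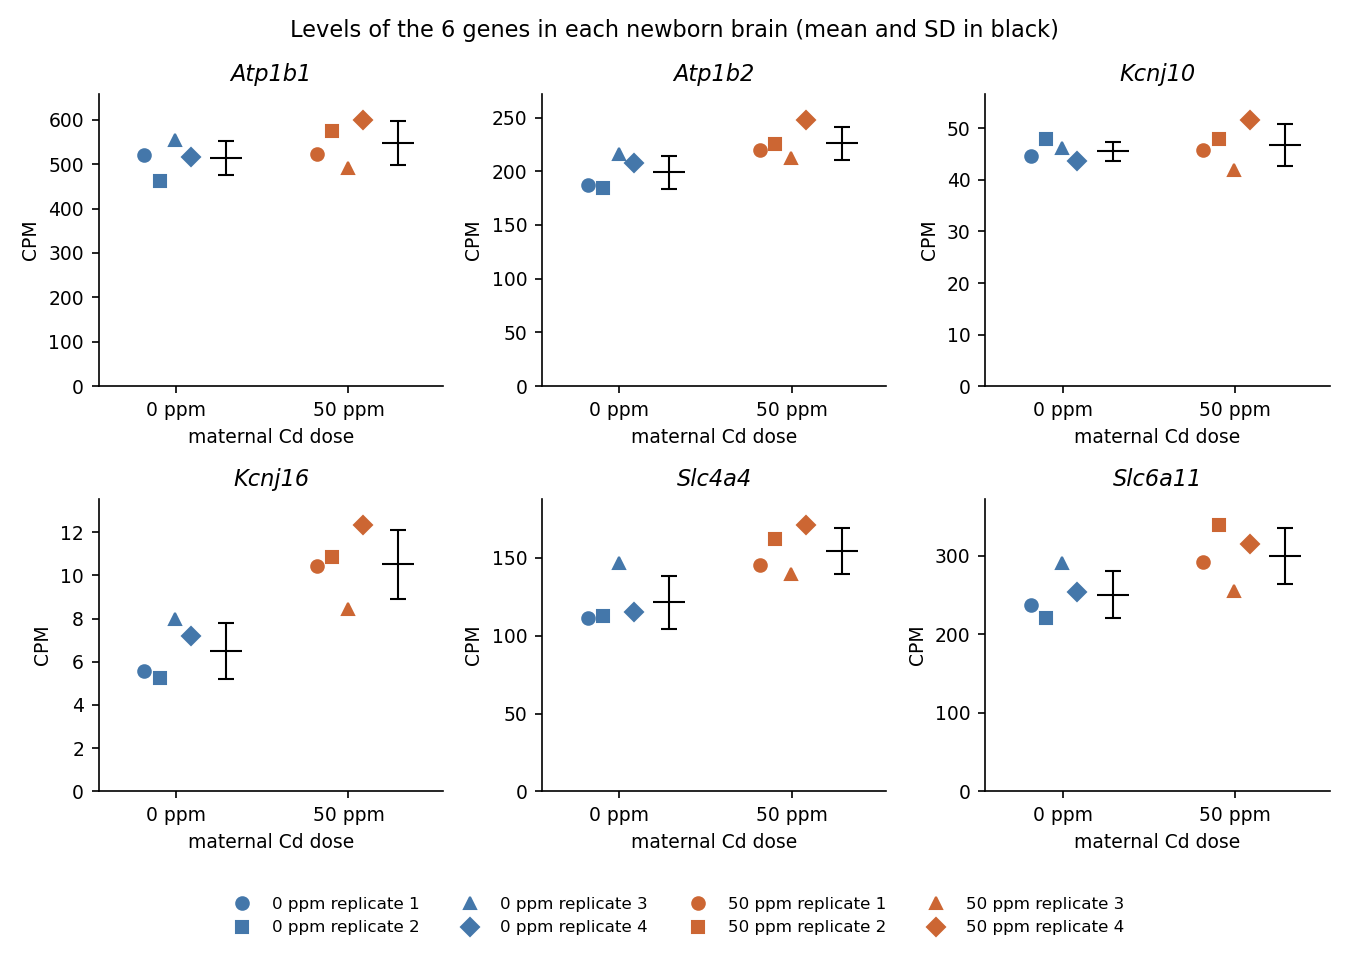
CPM (vertical axes from 0, 1 scale per gene) of the 6 genes in each brain at 0 ppm (blue) and 50 ppm (orange); symbols mark the replicate and black bars the mean and SD (n = 4). The groups are apart for Kcnj16, where controls reach 7.97 and exposed brains start at 8.46, and overlap for the other 5.

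The β subunit genes of the sodium pump differed little between doses. *Atp1b2*, the glial β subunit, had 187, 185, 216 and 208 CPM in control replicates 1 to 4 and 220, 225, 212 and 248 CPM in exposed replicates 1 to 4. Exposed replicate 3 lay within the control range, and the other 3 exposed brains were above all controls. The means were 199 ± 15.5 CPM and 226 ± 15.3 CPM (SD, n = 4 each). The log2 fold change was 0.19 (SE, standard error, 0.07), a mean 13.7% higher, with an adjusted p of 0.999 by edgeR's quasi-likelihood test and an exact two-sided permutation p of 0.0571. Without control replicates 1 and 2 it was 0.09 (SE 0.08, unadjusted p = 0.285). *Atp1b1* had 520, 462, 555 and 517 CPM in controls and 524, 575, 491 and 599 CPM in exposed brains. Its groups overlapped, with only 2 exposed brains above all controls. Its means were 514 ± 38.5 CPM and 547 ± 49.2 CPM (SD, n = 4 each), with a log2 fold change of 0.09 (SE 0.08) and an exact two-sided permutation p of 0.314, and with a log2 fold change of 0.03 (SE 0.08) without control replicates 1 and 2.

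Ratios within a brain do not depend on its library size. In all, 6 such ratios were tested with exact two-sided permutation tests, for which 0.0286 is the smallest p that 4 against 4 brains allow, and 3 are reported. The log2 ratio of *Atp1b1* to *Atp1b2* counts was 1.37 ± 0.07 in controls and 1.27 ± 0.06 in exposed brains, as mean ± SD over 4 brains (exact permutation p = 0.0857, adjusted over the 6 ratios 0.129). The difference was -0.10, and -0.07 without control replicates 1 and 2. The groups overlapped, so the balance of the β subunit RNAs was not shown to differ between doses.

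*Kcnj16*, the Kir5.1 gene, had the largest difference of the 6 genes. Its level was 5.56, 5.25, 7.97 and 7.20 CPM in control replicates 1 to 4 and 10.4, 10.8, 8.46 and 12.3 CPM in exposed replicates 1 to 4. Every exposed brain was above every control, with exposed replicate 3 nearest to control replicate 3. These values rest on 163, 141, 244 and 186 reads in controls and 297, 309, 237 and 279 reads in exposed brains. The means were 6.49 ± 1.30 CPM and 10.5 ± 1.59 CPM (SD, n = 4 each), and the fold change was 1.61. The log2 fold change was 0.69 (SE 0.16), with an exact two-sided permutation p of 0.0286, an unadjusted p of 0.000327 and an adjusted p of 0.313 in edgeR. The call for *Kcnj16* depended on the method: the adjusted p was 0.0285 with DESeq2 and 0.0276 in edgeR when only genes with 0 counts in all libraries were left out, a fit that called 0.192% of 27077 genes (3.74% at an unadjusted p). Over all 18 alternatives the adjusted p of *Kcnj16* ranged from 0.0276 to 1, and the log2 fold change stayed positive. Without control replicates 1 and 2, which had its lowest levels, the log2 fold change was 0.46 (SE 0.17, adjusted p = 0.848). That fit called 0.0294% of all genes and 0 of these 6, and 2 of the 6 genes remained at an unadjusted p under 0.05 (*Kcnj16* and *Slc4a4*), against 4.28% of all genes.

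*Kcnj10*, the Kir4.1 gene, showed no detectable difference. It had 44.6, 47.9, 46.1 and 43.6 CPM in controls and 45.7, 47.9, 42.0 and 51.6 CPM in exposed brains. The exposed group held both the highest and the lowest of the 8 brains. The means were 45.6 ± 1.87 and 46.8 ± 4.02 CPM (SD, n = 4 each), with a log2 fold change of 0.04 (SE 0.08) and an exact two-sided permutation p of 0.629. Without control replicates 1 and 2 the log2 fold change was 0.06 (SE 0.10).

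The ratio of *Kcnj16* RNA to *Kcnj10* RNA was higher in every exposed brain than in any control, but its p did not pass after adjustment. With *Kcnj10* nearly level between doses, this ratio largely restates the difference of *Kcnj16* and is not a second result. Per kilobase of exon, *Kcnj16* was at 0.172, 0.151, 0.238 and 0.227 of the level of *Kcnj10* in control replicates 1 to 4 and at 0.313, 0.311, 0.277 and 0.328 in exposed replicates 1 to 4, so the groups did not overlap. The log2 ratio of counts was -2.83 ± 0.32 in controls and -2.16 ± 0.10 in exposed brains, a difference of 0.67 (SE 0.17, exact two-sided permutation p = 0.0286, adjusted over the 6 ratios 0.0857). The difference was 0.40 without control replicates 1 and 2, where 0.0667 is the smallest p that the exact test can give. Neither neighbour of these genes on the chromosomes had a difference as large as that of *Kcnj16*. *Kcnj9* had 12.3 CPM in controls and 11.3 CPM in exposed brains, a log2 fold change of -0.12 (SE 0.15), and *Kcnj2* 13.6 and 14.4 CPM, a log2 fold change of 0.08 (SE 0.13).

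**Figure D2:**
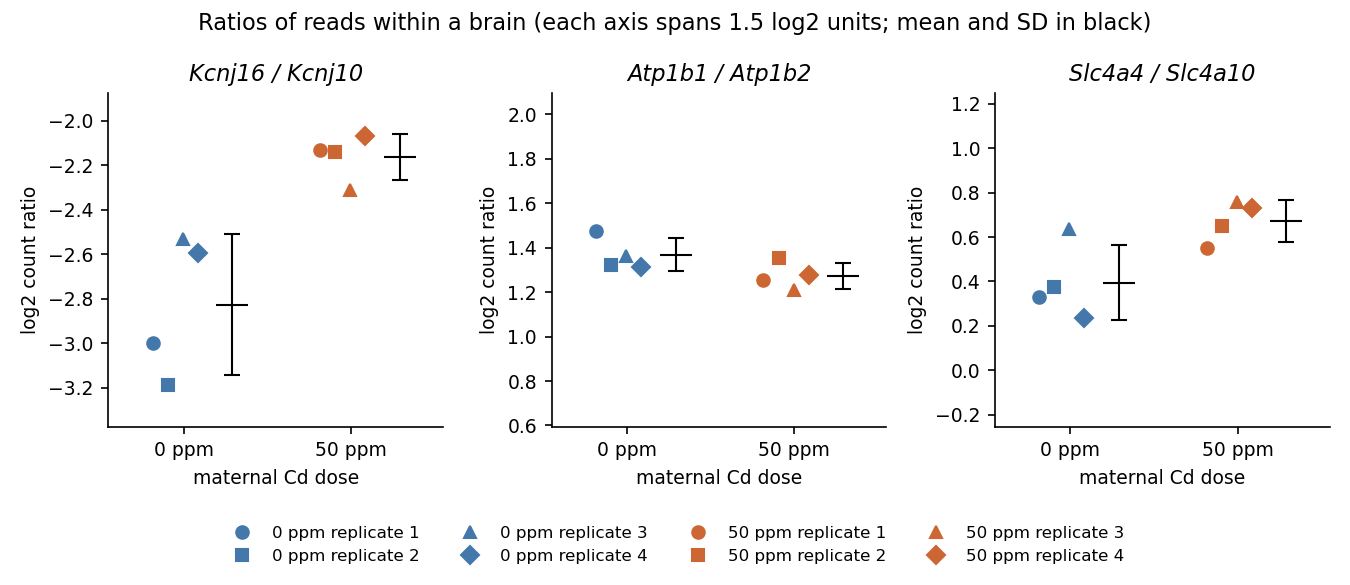
Log2 ratios of the reads of a pair of genes in each brain at 0 ppm (blue) and 50 ppm (orange), with the mean and SD (n = 4) in black; each vertical axis spans 1.5 log2 units but does not start at the same value. The groups are apart for Kcnj16 to Kcnj10 and overlap for Atp1b1 to Atp1b2 and for Slc4a4 to Slc4a10.

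*Slc4a4*, the bicarbonate cotransporter gene, had 111, 113, 147 and 115 CPM in control replicates 1 to 4 and 145, 162, 139 and 171 CPM in exposed replicates 1 to 4. Control replicate 3 stood above the other controls and lay among the exposed brains, while the other 3 controls were below all exposed brains. The means were 121 ± 16.9 and 154 ± 14.5 CPM (SD, n = 4 each), a fold change of 1.27. The log2 fold change was 0.35 (SE 0.09, adjusted p = 0.655 in edgeR), with an exact two-sided permutation p of 0.0857. Without control replicate 3 the adjusted p was 0.0297 at a log2 fold change of 0.45 (SE 0.08), in a fit that called 0.088% of genes, with 5.08% at an unadjusted p. Over all 18 alternatives the adjusted p of *Slc4a4* ranged from 0.0297 to 1. Without control replicates 1 and 2 the log2 fold change was 0.23 (SE 0.10, adjusted p = 0.998). *Slc4a10*, a bicarbonate transporter gene of neurons, had 91.9 ± 5.09 and 97.0 ± 9.82 CPM (SD, n = 4 each). The log2 ratio of *Slc4a4* to *Slc4a10* was 0.39 ± 0.17 in controls and 0.67 ± 0.09 in exposed brains, a difference of 0.28 (SE 0.10, exact two-sided permutation p = 0.0571, adjusted over the 6 ratios 0.114), and of 0.24 without control replicates 1 and 2.

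*Slc6a11*, the astrocytic GABA transporter gene, had 237, 220, 290 and 254 CPM in control replicates 1 to 4 and 292, 338, 255 and 315 CPM in exposed replicates 1 to 4. The study reported more of the *Slc6a11* protein in the exposed brains of these same pups, but protein was not examined here. The RNA groups overlapped through control replicate 3 and exposed replicate 3. The means were 250.2 ± 29.9 and 299.9 ± 35.6 CPM (SD, n = 4 each), a fold change of 1.20. The log2 fold change was 0.26 (SE 0.09, adjusted p = 0.999 in edgeR), with an exact two-sided permutation p of 0.0571, and it was 0.14 (SE 0.10) without control replicates 1 and 2.

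The 6 genes tended to be high or low in the same brains. Control replicate 3 was the highest control for 5 of the 6 genes, all but *Kcnj10*, and control replicate 2 the lowest for 4 (*Atp1b1*, *Atp1b2*, *Kcnj16* and *Slc6a11*). Exposed replicate 3 was the lowest exposed brain for 6 of 6 genes, and exposed replicate 4 the highest for 5, all but *Slc6a11*. Across the 8 brains, log2 CPM of *Atp1b2* and *Kcnj16* had a Pearson r of 0.97, and of 0.96 in deviations from the dose means. The 10 pairs without *Kcnj10* had r from 0.75 to 0.97, and the 5 pairs with it from 0.39 to 0.56. These values are descriptions over 8 libraries that share their depth and tissue content within a brain.

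**Figure D3:**
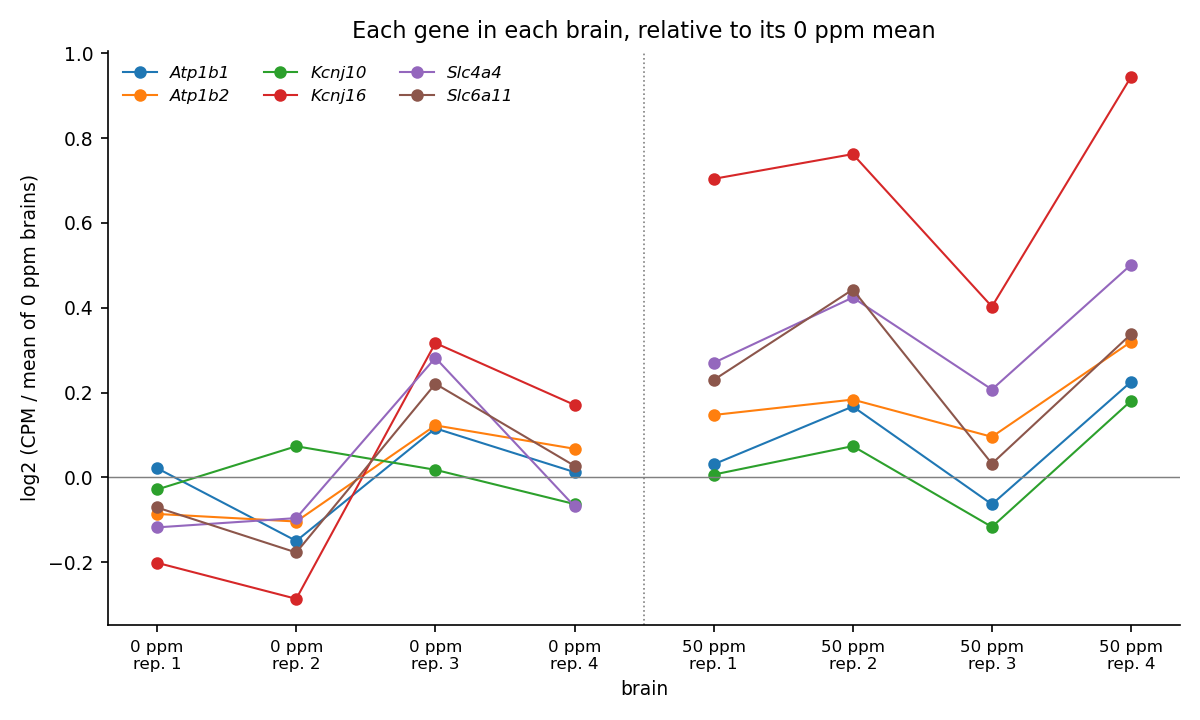
Log2 ratio of the CPM of each gene to its mean in the 0 ppm brains (vertical axis) for each of the 8 brains (horizontal axis); lines join the values of 1 gene and carry no order. Kcnj16 spans the widest range and Kcnj10 the narrowest, and exposed replicate 3 is the lowest exposed brain for all 6 genes.

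Over the 11785 genes with a mean of at least 5 CPM, the genes with the pattern most like each of the 6 were found by Pearson r of log2 CPM over the 8 brains. *Kcnj16* was most like the myelin enzyme gene *Cnp* (r = 0.971), *Atp1b2* (0.967) and the cytokine gene *Il33* (0.963). *Atp1b2* was most like *Serpini1* (0.968), *Kcnj16* (0.967) and *AI464131* (0.961). For *Slc4a4* these genes were *Sparcl1* (0.973), *Cd81* (0.965) and *Adhfe1* (0.943), and for *Slc6a11* they were *Arhgap36* (0.990), *Hspa4l* (0.969) and *Ahcyl2* (0.967). For *Atp1b1* they were *9330182L06Rik* (0.963), *Lpar1* (0.962) and *Arhgef28* (0.962), and for *Kcnj10* they were *Emb* (0.938), *St13* (0.934) and *Slc1a1* (0.914). The mean standardized profile of the 6 genes was most like that of *Glud1* (0.984), the glutamate dehydrogenase gene, then *Vstm4* (0.963) and *Acer3* (0.962). *Atp1b2* and *Kcnj16* were thus the only 2 of the 6 genes to name each other. Dose means were not removed, so a shared dose difference can by itself make 2 genes alike. These are also the highest of 11785 values of r over 8 brains, a choice that favours high values.

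Of 10 astrocyte markers, 4 were higher and 0 lower at 50 ppm at an unadjusted p under 0.05, and 0 had an adjusted p under 0.05. Of all genes tested, 2.31% were higher and 1.44% lower at that unadjusted threshold, and 0.0173% had an adjusted p under 0.05. The most abundant per kilobase were *Ndrg2* (203 CPM in controls and 240 CPM in exposed brains) and *Aldoc* (119 and 157 CPM), both among the 4. Of the other 6, log2 fold changes were 0.15 for *Fgfr3*, 0.10 for *Cbs*, 0.06 for *Acsbg1*, 0.02 for *Aldh1l1*, -0.08 for *Sox9* and -0.25 for *Dio2*. These 6 are named after their values were seen. The summed CPM of the list was between 553 and 738 in controls and between 663 and 765 in exposed brains, and none of the list was at 0 CPM in any brain. The mean log2 CPM of the astrocyte markers was 5.30, 5.05, 5.48 and 5.19 in control replicates 1 to 4 and 5.50, 5.47, 5.29 and 5.57 in exposed replicates 1 to 4. Control replicate 3 was thus the highest control and exposed replicate 3 the lowest exposed brain, as for *Kcnj16*, *Slc4a4*, *Slc6a11*, *Atp1b1* and *Atp1b2*. Oligodendrocyte markers were also higher (7 of 10 at an unadjusted p under 0.05, 1 of them at an adjusted p under 0.05). Their summed CPM was between 120 and 157 in controls and between 161 and 238 in exposed brains. That list holds genes that the study called in these same brains, so its count is not independent of the study. Pericyte (2 of 4) and microglia markers (3 of 6) were also higher at an unadjusted p under 0.05, with 0 lower. Of 10 neuron markers, 0 passed in either direction.

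With the astrocyte score as a covariate in the edgeR model, 1 of the 6 genes had an unadjusted p under 0.05, against 3.08% of all genes, and 0 had an adjusted p under 0.05, against 0.00433%. *Kcnj16* then had a log2 fold change of 0.43 (SE 0.17), *Slc4a4* 0.18 (0.09), *Atp1b2* 0.09 (0.08), *Slc6a11* 0.08 (0.09), *Kcnj10* -0.01 (0.10) and *Atp1b1* -0.05 (0.08). With the hindbrain and spinal cord score as the covariate, 1 of the 6 had an unadjusted p under 0.05, against 4.15% of all genes. The log2 fold changes were then 0.40 (SE 0.19) for *Kcnj16*, 0.22 (0.12) for *Slc4a4*, 0.11 (0.11) for *Slc6a11*, 0.08 (0.09) for *Atp1b2*, 0.06 (0.11) for *Kcnj10* and 0.03 (0.10) for *Atp1b1*. The estimates for *Kcnj16*, *Slc4a4*, *Slc6a11*, *Atp1b2* and *Atp1b1* were smaller with either score than without one. *Kcnj16* was the gene that stayed under an unadjusted p of 0.05 with both. The hindbrain and spinal cord score was higher in every exposed brain (1.29 or more) than in any control (1.25 or less). The astrocyte score overlapped between doses, but 4 of its 10 markers were themselves higher at 50 ppm at an unadjusted p under 0.05. A score that differs with dose can take up part of a dose difference, so these fits cannot separate dose from tissue content. The cause of the smaller estimates was not tested.

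**Figure D4:**
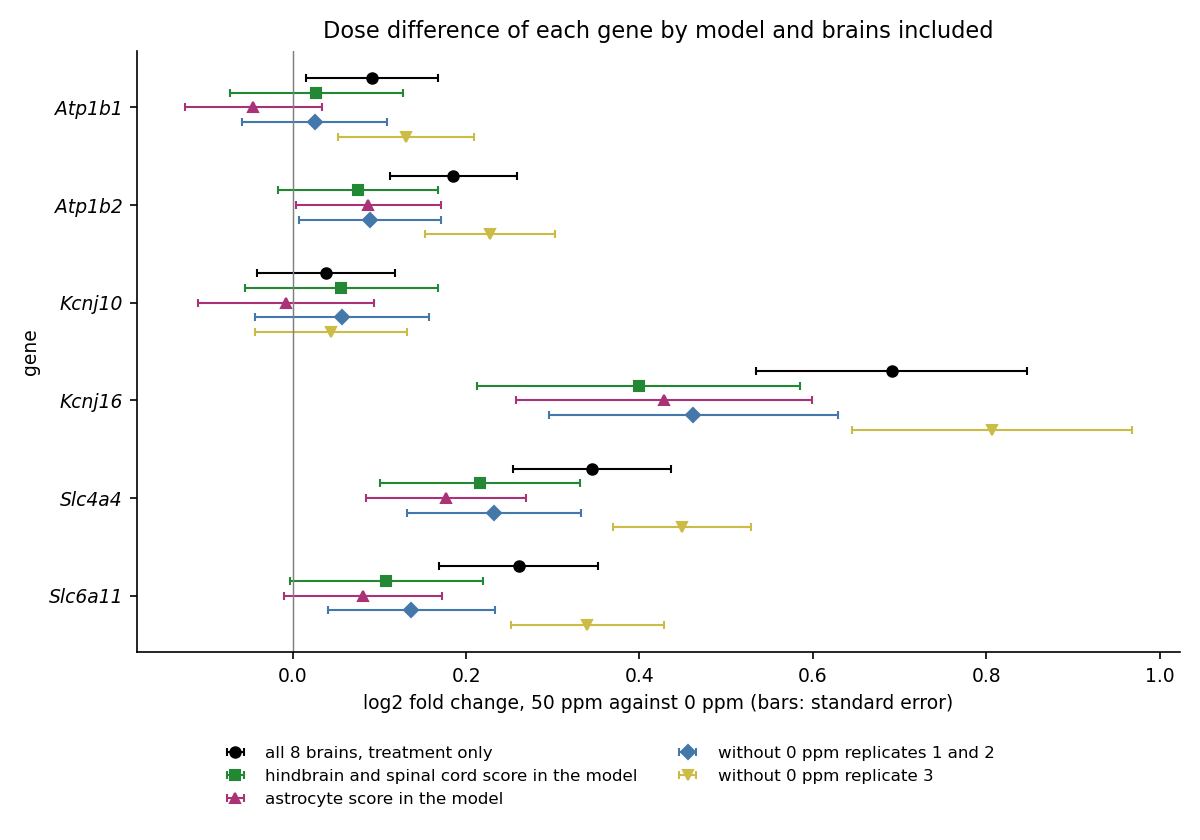
Log2 fold change (horizontal axis, 50 ppm against 0 ppm) of each gene with its standard error, in the model with treatment only (black), with the hindbrain and spinal cord score (green) or the astrocyte score (purple) as a covariate, and without control replicates 1 and 2 (blue) or 3 (yellow). For Kcnj16 the value is 0.69 with treatment only and between 0.40 and 0.81 otherwise.

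Among relatives and partners of these genes, no difference passed the adjusted test. Of 69 genes fixed as relatives or glial partners and reported, 66 were tested, 0 had an adjusted p under 0.05 in edgeR, and 11 (16.7%) had an unadjusted p under 0.05, 10 higher and 1 lower, against 3.75% of all genes tested. The share is a description of a list chosen with earlier results known, and nothing particular to the list follows from it. The counts and log2 fold changes of relatives and partners are from all 8 brains. They are not given without control replicates 1 and 2, the brains low in hindbrain markers. None of these 11 was among the 8 tested genes reported of the sodium pump family, whose median log2 fold change was 0.004. The most abundant of the 8 per kilobase were the regulatory subunit genes *Fxyd6* (108 CPM per kb), whose log2 fold change was -0.01 (SE 0.07), and *Fxyd7* (44.5 CPM per kb), with 0.12 (SE 0.12). In the inward rectifier family 2 of 13 were among them. *Kcnj8*, a subunit of ATP-sensitive channels in vessel walls, had 4.97 CPM in controls and 6.80 CPM in exposed brains (log2 fold change 0.45, SE 0.16). *Kcnj11*, its relative in neurons, had 13.5 and 10.9 CPM (log2 fold change -0.30, SE 0.11), with no overlap between doses. *Kcnj3* and *Kcnj4*, the most abundant of this family per kilobase (6.54 and 3.78 CPM per kb), had log2 fold changes of 0.05 and -0.23.

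Among 13 genes for bicarbonate transport and pH, 1 had an unadjusted p under 0.05, the carbonic anhydrase gene *Car2* (16.0 CPM in controls and 19.6 CPM in exposed brains), and the median log2 fold change was -0.01. *Slc4a10* (14.7 CPM per kb) and *Slc4a3* (12.7 CPM per kb) were the most abundant per kilobase. Among 16 tested genes reported of the SLC6 family, 5 were higher and 0 lower at an unadjusted p under 0.05, against 2.31% higher and 1.44% lower of all genes tested, and the median log2 fold change was 0.14. *Slc6a13*, the GAT-2 gene, was one of them, with 29.4 ± 3.00 CPM in controls and 36.8 ± 2.86 CPM in exposed brains (SD, n = 4 each) and no overlap, as was the betaine and GABA transporter gene *Slc6a12* (1.44 and 2.31 CPM). *Slc6a20a* had 21.2 and 29.7 CPM. The norepinephrine transporter gene *Slc6a2* (4.90 ± 2.60 and 13.6 ± 11.7 CPM) and the neuronal glycine transporter gene *Slc6a5* (13.6 ± 14.2 and 36.1 ± 14.6 CPM) had the largest log2 fold changes of the 16 genes (1.46 and 1.41), with SDs that were large beside their means. *Slc6a5* was at 0.239 CPM in its lowest control. *Slc6a6* and *Slc6a17*, the most abundant of these 16 genes per kilobase, had log2 fold changes of 0.01 and -0.06.

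Of 16 glial partners, 3 were higher and 0 lower at an unadjusted p under 0.05, against 2.31% and 1.44% of all genes tested. *Aqp4*, the water channel of astrocyte end-feet, had 85.7 ± 24.2 CPM in controls and 140 ± 19.2 CPM in exposed brains (SD, n = 4 each), with a log2 fold change of 0.71 (SE 0.15). The connexin genes of astrocytes were the others. *Gja1* had 123 and 167 CPM (log2 fold change 0.44, SE 0.11) with no overlap between doses, and *Gjb6* had 11.4 and 16.3 CPM (0.52, SE 0.14). Their adjusted p values in edgeR were 0.271 for *Aqp4*, 0.426 for *Gja1* and 0.616 for *Gjb6*. The most abundant partners per kilobase were *Glul*, glutamine synthetase (318 and 331 CPM, log2 fold change 0.06), and the glutamate transporter gene *Slc1a3* (339 and 371 CPM, 0.13).

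**Figure D5:**
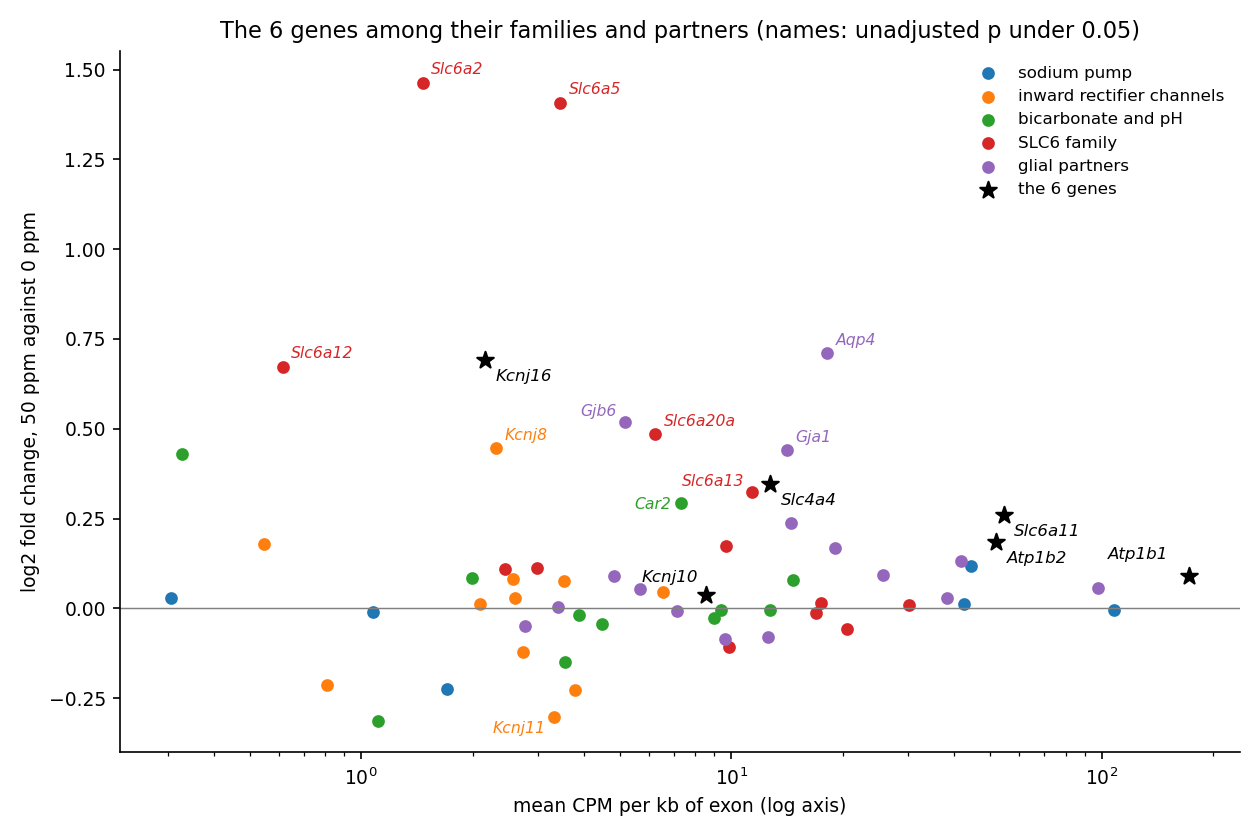
Log2 fold change (50 ppm against 0 ppm, vertical axis) against mean CPM per kilobase of exon (log axis) for the 6 genes (black stars) and for the reported genes of 4 families and the glial partners at 0.1 CPM per kb or more (dots); named dots have an unadjusted p under 0.05. The 6 genes lie at or above 0, and 10 of the 11 named relatives and partners are above 0.

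Counts from the alignment to the C genome were paired with *Kcnj16* and *Slc4a4*, and the other 4 genes were not analysed there. *Kcnj16* had 7.07 ± 1.39 CPM in controls and 11.4 ± 1.74 CPM in exposed brains (SD, n = 4 each), with a log2 fold change of 0.69 (SE 0.16, adjusted p = 0.313 in edgeR). *Slc4a4* had 54.8, 55.4, 65.7 and 55.4 CPM in control replicates 1 to 4 and 74.5, 80.8, 70.5 and 81.0 CPM in exposed replicates 1 to 4. Here the groups of *Slc4a4* did not overlap, although control replicate 3 was again the highest control. Its log2 fold change was 0.41 (SE 0.08, unadjusted p = 0.000109, adjusted p = 0.216), and 0.0101% of 19847 genes were called in that alignment. Both *Kcnj16* and *Slc4a4* had an unadjusted p under 0.05 there, against 3.8% of all genes. The alignments hold the same libraries, so they are not independent.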

How the data were processed

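Poly(A) RNA of 8 whole brains was sequenced as single-end reads. The files deposited by the authors hold raw counts, the reads on each gene, in 1 table per genome: B (GRCm38) and C (CAST/EiJ). No normalization had been applied. Per the study's methods the first 10 bases were trimmed, reads were aligned with STAR and counted on genes (Ensembl 87) with htseq-count. Tool versions and the strand setting of the count are not given in the sources used here. Total counts were 22916434 to 30708087 (B genome) and 20229869 to 27198662 (C genome) per brain, and floors cover counting error only.

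Identifiers were named from Ensembl tables (49326 of 49585), and coordinates and exon lengths came from GENCODE M21. Genes with 0 counts in more than 5 of 8 libraries were left out. Doses were compared with edgeR 4.0.16 (glmQLFit, glmQLFTest, TMM, treatment only) in R 4.3.3, with Benjamini-Hochberg adjustment over all genes tested at a threshold of 0.05. Standard errors are the log2 fold change over the square root of F. Scores are mean log2 CPM (prior count 2). Some single genes and 3 of the 6 ratios are not reported here. Ratios used counts plus 0.5 and exact two-sided permutation tests over 70 labellings. Alternatives were DESeq2 1.42.0, its size factors, other count filters, a robust fit, limma-voom 3.58.1, the 2 scores as covariates, the C genome, a prior count of 2 and each library left out in turn. Named genes are the 6 genes, the ratio partners, relatives at an unadjusted p under 0.05, the 2 most abundant per list, at most 3 markers per list and the 3 most alike in pattern. The members, lists and motifs were chosen with earlier results of these data known. Code was checked on simulated counts. Figures were drawn with matplotlib 3.10.9.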

Additional observations from a re-analysis of the deposited data

Results flagged for a closer look

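*Slc4a4* in control replicate 3 had 146.7 CPM, far from the other control brains (111, 113 and 115 CPM). The gap was 0.889 of the range of the 4 controls. In all, 24 groups of 4 brains were examined in this way, and chance flags about 1 in 20. The same brain had the highest control level of *Atp1b1*, *Atp1b2*, *Kcnj16* and *Slc6a11*, and the highest astrocyte score of the controls (5.48).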

How the results depend on the processing

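For *Kcnj16*, *Slc4a4*, *Slc6a11* and *Atp1b2* the fold change was positive in every alternative run (0.40 to 0.81, 0.18 to 0.45, 0.08 to 0.34 and 0.08 to 0.23 on the log2 scale). *Atp1b1* turned to -0.0454 and *Kcnj10* to -0.00736 with the astrocyte covariate, and *Kcnj10* was -0.0109 without exposed replicate 4 and up to 0.0934 with another brain left out. Where an adjusted p under 0.05 was reached by 4 genes, DESeq2 gave 18, no filter 52, a minimum of 10 counts in 4 libraries 2, limma-voom 1, the astrocyte covariate 1, the C genome 2 and the fit without control replicates 1 and 2 gave 7. Leaving out 1 brain gave 2 to 20 (20 without control replicate 3, 8 without exposed replicate 3). Among the 6 genes, that count was 0, but 1 with DESeq2, 1 with no filter and 0 to 1 with 1 brain left out. The count at an unadjusted p fell from 4 to 1 with either covariate and to 2 without control replicates 1 and 2, and was 3 to 4 with 1 brain left out. In the C genome only 2 of the 6 genes were analysed, and 2 of 2 had an unadjusted p under 0.05. Genes with groups apart were 1 to 4, with 4 without control replicate 3 and 3 without exposed replicate 3, against 5.43% and 4.55% of all genes. With 1 brain left out, the difference in log2 ratio was 0.55 to 0.76 for *Kcnj16* to *Kcnj10* (exact p = 0.0571 without exposed replicate 1, 2 or 4, and 0.0286 otherwise) and 0.22 to 0.36 for *Slc4a4* to *Slc4a10* (exact p = 0.0571 to 0.114, but 0.0286 without control replicate 3). *Kcnj16* to *Kcnj10* was 0.40 without control replicates 1 and 2 (exact p = 0.0667). The causes were not tested. No paired analysis was possible because the labels carry no replicate numbers and each pup is from its own litter. Doses were compared over 4 brains each, reads of *Kcnj16* were few, and whole brain RNA does not resolve cell types.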

Other observations

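The level of *Slc4a4* depended on the genome to which reads were aligned, and that of *Kcnj16* much less. *Slc4a4* had 121 ± 16.9 CPM in controls when the B genome was used and 57.8 ± 5.24 CPM when the C genome was used, and 154 ± 14.5 and 76.7 ± 5.13 CPM in exposed brains (SD, n = 4 each). *Kcnj16* had 6.49 ± 1.30 and 7.07 ± 1.39 CPM in control brains. The gene models of the 2 annotations were not compared here, and the cause was not tested.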
